A study of Mus musculus with 2 samples.

Results

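The genes described are the 6 mouse genes of the receptors for immunoglobulin G (IgG), namely Fcgr1, Fcgr3, Fcgr4, Fcer1g, Fcgr2b and Fcgrt. They were taken by symbol from the 28692 genes of the matrices, and all 6 were present. Their transcripts were counted in 3220 of 4390 cell barcodes, those with 250 to 5000 genes, at most 27000 unique molecular identifiers (UMIs, each standing for 1 captured RNA molecule) and a share of mitochondrial UMIs within the limit of the filter. The cells came from tumors of 4T1, a mouse triple negative mammary carcinoma line, grown in the mammary fat pad of female BALB/c mice that were 8 to 10 weeks old. The tumor labelled 4T1p was the parental line, and 4T1m was a polyclonal derivative made by exposure to the mutagen MNNG. Both had received anti-PD1 antibody for 2 weeks, so no value here compares treated with untreated tumors, and tumors given control IgG were not analysed here. Cells were selected on GR-1 with magnetic beads, and each tumor line gave 1 10x 3′ library, for which the number of pooled tumors was not stated.

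Fc receptors hold the constant part of IgG at the surface of myeloid cells and read out whether antibody is bound to a target. The activating receptors FcγRI (Fcgr1), FcγRIII (Fcgr3) and FcγRIV (Fcgr4) signal through the common γ chain (Fcer1g), whose tyrosines are phosphorylated by Src family kinases and recruit Syk, while the inhibitory receptor FcγRIIB (Fcgr2b) recruits the phosphatase SHIP1 and dampens the same cells. The neonatal receptor FcRn (Fcgrt, with the light chain B2m) acts inside the cell, where it saves IgG from degradation. On tumor macrophages and neutrophils these receptors also bind therapeutic antibodies.

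In the GRCm38 annotation, 4 of the genes lay within 275.7 kb of chromosome 1. These were Fcgr2b (chr1:170958617-170976547, minus strand), Fcgr4 (chr1:171018920-171029761, plus), Fcgr3 (chr1:171051174-171064935, minus) and Fcer1g (chr1:171229572-171234365, minus). Fcgr1 lay on chromosome 3 (chr3:96282909-96293969, minus) and Fcgrt on chromosome 7 (chr7:45092990-45103851, minus). The 120 bases before the start of 4 receptors (RefSeq, GRCm38.p6) are printed, with 3 short motifs in capitals. The first is the core bound by the myeloid factor PU.1 (GAGGAA, read on both strands, TTCCTC on the other). The others are a GAS-like motif of STAT factors (TTCNNNGAA, its own reverse complement) and an ISRE-like motif of interferon regulatory factors (GAAA, any 2 bases, GAAA, both strands). Of the 3, only the exact letters GAGGAA or TTCCTC were in the windows of all 3 activating receptors and absent from that of Fcgr2b. Shorter forms of the motif were not searched, nor was the other listed start of Fcgr3. The window of Fcgr2b lay inside the annotated gene, which reaches to chr1:170976547, and the bases beyond that position were not searched.
Fcgr1 (chr3:96293970-96294089, minus): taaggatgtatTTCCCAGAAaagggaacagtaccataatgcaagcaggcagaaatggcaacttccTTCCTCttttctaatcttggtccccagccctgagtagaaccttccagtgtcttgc
Fcgr3 (chr1:171059404-171059523, minus, the first of 2 listed starts): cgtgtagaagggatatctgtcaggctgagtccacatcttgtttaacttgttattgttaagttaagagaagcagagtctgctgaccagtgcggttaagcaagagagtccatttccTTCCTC
Fcgr4 (chr1:171018806-171018925, plus): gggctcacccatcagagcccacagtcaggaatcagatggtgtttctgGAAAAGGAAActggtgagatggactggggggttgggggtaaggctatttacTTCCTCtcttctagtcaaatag
Fcgr2b (chr1:170976072-170976191, minus): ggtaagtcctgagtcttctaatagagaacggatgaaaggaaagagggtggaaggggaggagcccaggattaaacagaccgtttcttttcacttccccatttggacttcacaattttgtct
In the 250 bases before the start, the PU.1 core was present in 3 of the 6 genes, the activating receptors Fcgr1, Fcgr3 and Fcgr4. It was present in 23.1% of 27025 promoters of the same length. The GAS-like motif was present in Fcgr1 alone of the 6 (7.18% of all promoters) and the ISRE-like motif in Fcgr4 alone (3.04%). None of these letters was found in the windows of Fcer1g, Fcgr2b and Fcgrt. A match is a description of the sequence, not a measured binding site.

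The library labelled 4T1p held 1128 of the cells and that labelled 4T1m held 2092, with 5570882 and 10831715 UMIs and no barcode in common. Over all deposited barcodes the median was 2066 UMIs for 4T1p and 2763 for 4T1m. The methods of the study give the same medians with the labels exchanged. Whether the text or the deposited files carry the exchange was not tested, so the libraries are named here strictly by their labels. Were the files exchanged, every difference between 4T1p and 4T1m given here would keep its size and turn its direction, while the comparisons of lineages and clusters within a library would stand. Clustering, in which the 6 genes took no part, gave 12 clusters. Of these, 6 were monocytic-like by 10 markers (1883 cells, 868 of 4T1p and 1015 of 4T1m), 4 were granulocytic-like by 8 markers (1273 cells, 251 and 1022), 1 was B cell-like (34 cells) and 1 was T cell-like (30 cells). The genes of GR-1 itself were scarce in the monocytic-like cells, with 7 UMIs of Ly6g in all and Ly6c2 at 29.2 CPM (UMIs per 1000000 UMIs of the group). Ly6g stood at 236 CPM in granulocytic-like cells, where 12.9% of cells held a UMI of it. Each library is 1 sample, so no test between conditions was possible. Intervals are exact 95% intervals that cover counting error only, and fewer molecules per cell cannot be told apart from fewer cells with the molecule.

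The receptor genes fell into 2 patterns across the lineages. Fcgr1, Fcgr2b and Fcgrt were carried almost wholly by monocytic-like cells. Fcgr3, Fcgr4 and Fcer1g were present in both lineages, and Fcer1g was higher in granulocytic-like cells. In both libraries 3 of the 6 genes were at least 2-fold higher in monocytic-like cells, where 46.4% of 7087 tested genes were, and none was at least 2-fold lower, where 8% were. Taken singly, 4T1p had 4 of the 6 genes higher (Fcgr4 being the fourth), beside 49.9% of 7115 genes higher and 11.1% lower, and 4T1m had 3, beside 54.2% of 8567 genes higher and 10.5% lower. The median log2 ratio of all tested genes was 0.99 in 4T1p and 1.21 in 4T1m, so a ratio near 1 was the ordinary one, and values are also given relative to it.

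**Figure D1:**
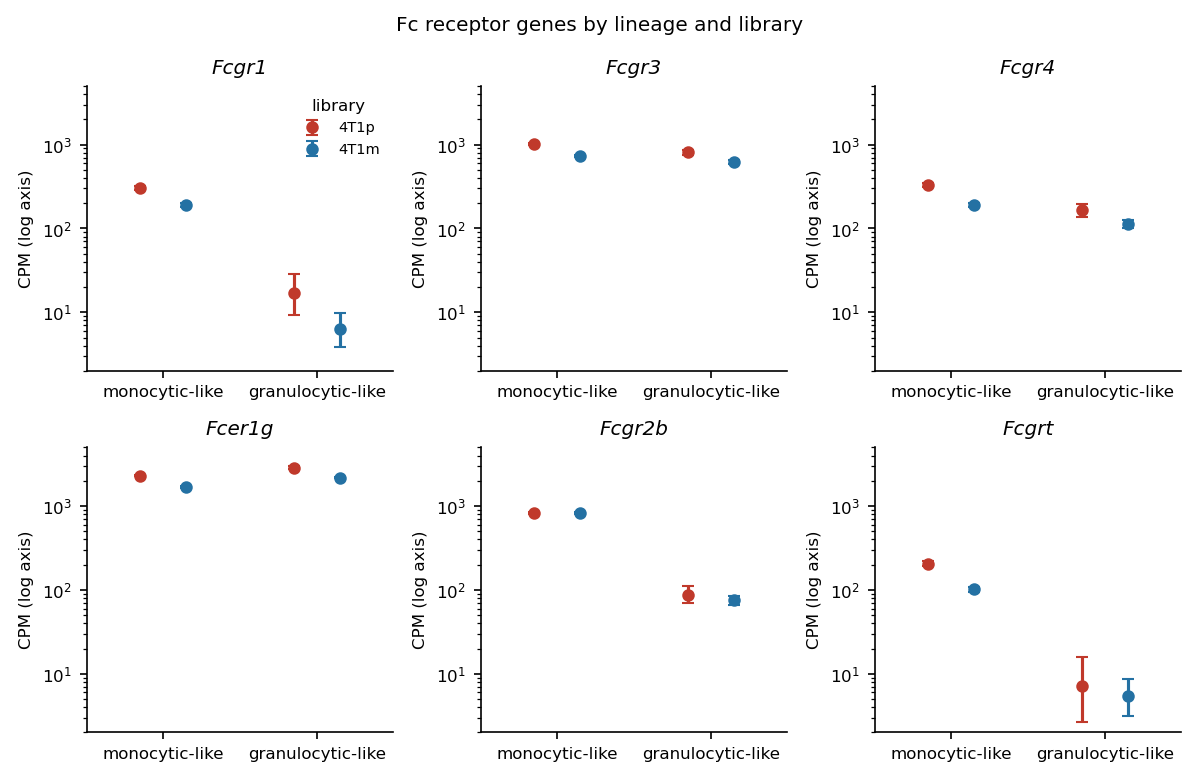
Level of each gene in CPM (log axis) in monocytic-like and granulocytic-like cells of the libraries labelled 4T1p (red) and 4T1m (blue), with exact 95% Poisson intervals. Fcgr1, Fcgr2b and Fcgrt dropped by at least 9-fold in granulocytic-like cells, whereas Fcgr3 and Fcer1g stood at like levels in both lineages.

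Fcgr1, the high-affinity receptor, stood at 307 CPM (291 to 323) in monocytic-like cells of 4T1p and at 190 CPM (180 to 201) in those of 4T1m. In granulocytic-like cells it was at 16.9 CPM (14 UMIs) and 6.31 CPM (20 UMIs). The lineages were thus apart by 4.18 (3.43 to 5.06) and 4.91 (4.28 to 5.63) on the log2 scale. Fcgrt, the FcRn heavy chain, was at 206 and 102 CPM in monocytic-like cells and at 7.25 CPM (6 UMIs) and 5.36 CPM (17 UMIs) in granulocytic-like cells, log2 ratios of 4.83 and 4.25. Fcgr2b, the inhibitory receptor, was at 821 CPM (795 to 847) and 823 CPM (803 to 844) in monocytic-like cells against 88.2 and 75.4 CPM in granulocytic-like cells, log2 ratios of 3.22 and 3.45.

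The low granulocytic values were set against genes of the monocytic-like cells measured in the same way. Over the 10 monocytic markers and both libraries, the granulocytic level was 2.35% to 8.09% of the monocytic level. Fcgr1 (5.51% and 3.32%) and Fcgrt (3.51% and 5.25%) fell inside that range. The same markers assigned the clusters to lineages, so the range is not a measured background level. Whether the UMIs of Fcgr1 and Fcgrt in granulocytic-like cells are background was not tested. Among granulocytic-like clusters Fcgr1 ran from 16.4 CPM (9.55 to 26.2) in cluster 2 to 0.849 CPM (0.0215 to 4.73) in cluster 8. Fcgr2b lay slightly above it, at 10.7% in 4T1p and 9.16% in 4T1m. Fcgr4 was at 49.4% and 59.2%, Fcgr3 at 79.8% and 84.2% and Fcer1g at 124% and 129%, all far outside it.

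Fcgr3, the low-affinity activating receptor, was at 1009 CPM (980.5 to 1038) in monocytic-like and 806 CPM (746 to 869) in granulocytic-like cells of 4T1p. In 4T1m the levels were 737 CPM (718 to 757) and 621 CPM (594 to 649). The log2 ratios of 0.32 and 0.25 turned to -0.67 and -0.96 relative to the median gene, and in 4T1p to -0.04 with each cell thinned to 1000 UMIs, so Fcgr3 had no direction that held on every scale. Fcgr4, which binds fewer IgG subclasses, stood at 333 and 164 CPM in the lineages of 4T1p and at 192 and 113 CPM in those of 4T1m. Its log2 ratios were 1.02 (0.76 to 1.28) and 0.76 (0.59 to 0.93), and relative to the median gene the ratio in 4T1m was -0.45. Fcer1g, the signalling chain, was lower in monocytic-like cells in both libraries, at 2312 against 2871 CPM in 4T1p and 1696 against 2190 CPM in 4T1m. Its log2 ratios of -0.31 (-0.38 to -0.25) and -0.37 (-0.41 to -0.33) kept their sign under all 14 alternatives. Relative to the median gene they were -1.31 and -1.58.

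The share of cells with a UMI gave the same grouping. With every cell thinned to 1000 UMIs, Fcgr1 was seen in 21.9% of 1355 monocytic-like and 0.685% of 1168 granulocytic-like cells, Fcgr2b in 45.2% and 6.93%, and Fcgrt in 12.4% and 0.599%. Fcgr3 was seen in 54.0% and 46.1% and Fcgr4 in 19.7% and 11.7%. Fcer1g was the only member seen in fewer monocytic-like cells, 79.0% against 84.8%. Before thinning, at median depths of 2228 and 2535 UMIs, the shares were 44.6% and 2.36% for Fcgr1, 70.8% and 69.0% for Fcgr3, 43.3% and 27.3% for Fcgr4, 86.8% and 93.6% for Fcer1g, 62.2% and 17.7% for Fcgr2b, and 32.2% and 1.57% for Fcgrt.

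Lymphocyte-like cells held few UMIs of the activating receptors. In the 34 B cell-like cells (median 3787.5 UMIs) Fcgr3 was at 24.2 CPM and Fcer1g at 48.3 CPM. In the 30 T cell-like cells (median 5509.5 UMIs) they were at 19.5 and 146 CPM. Of the 30 Fcer1g UMIs of T cell-like cells, 26 lay in 4 cells of 4T1m. Fcgr4 was at 6.04 CPM in B cell-like and 0 CPM in T cell-like cells. Fcgr1 was at 6.04 CPM (1 UMI, 0.153 to 33.6) and 9.74 CPM (2 UMIs, 1.18 to 35.2). These intervals held the 8.51 CPM of Fcgr1 in granulocytic-like cells. Fcgrt had no UMI in either cluster, for which the exact intervals reach up to 22.3 and 18.0 CPM. Fcgr2b, the Fcγ receptor known from B cells, was at 90.6 CPM (15 UMIs, 50.7 to 149) in B cell-like cells and at 92.5 CPM (19 UMIs) in T cell-like cells. Of these 19 UMIs, 17 lay in 2 cells of 4T1m. Since B cells make the receptor and the T cell-like value rests on so few cells, neither gives a background level for the 78.1 CPM of granulocytic-like cells.

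UMIs of activating and inhibitory receptors were found together in single barcodes of the monocytic-like lineage. In cluster 4, the deepest (median 13547 UMIs), 67.8% of 357 cells held UMIs of all 4 of Fcgr1, Fcgr2b, Fcgr3 and Fcgr4, and 86.6% (82.6% to 89.9%) held both Fcgr2b and Fcgr3. In cluster 5 (median 11237 UMIs) 87.5% of 337 cells held both. Such shares rise with depth. In the granulocytic-like cluster 8 Fcgr2b was at 49.2 CPM, at a median of 5643 UMIs. Yet 26.3% of its 167 cells held a UMI of Fcgr2b and 22.8% held both genes. The part of free RNA in such shares was not tested. At 1000 UMIs per cell both genes were seen together in 27.9% of monocytic-like and 3.51% of granulocytic-like cells. Fcgr3 without Fcgr2b was then seen in 26.1% of monocytic-like and 42.6% of granulocytic-like cells.

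Within the monocytic-like lineage the genes peaked in different clusters. The clusters were described by their leading genes: cluster 1 by C1qa, C1qb and the class II genes H2-Eb1 and H2-Aa, cluster 4 by Cx3cr1, Cxcl9 and Ccl5, cluster 5 by Thbs1, Mmp12 and Il7r, cluster 9 by Cd163, Lyve1 and Cbr2, cluster 7 by the proliferation genes Top2a and Birc5, and cluster 0 by Fabp5 and Lgals1. Clusters 0, 1 and 7 were shallow, with medians of 931, 1128.5 and 1480 UMIs. Cluster 0 had no monocytic marker among its 10 leading genes, its cells of 4T1m had a median of 903.5 UMIs against 2739 for all cells kept of that library, and it held fibroblast and tumor epithelial marker RNA at 172 and 135 CPM, against at most 24.3 and 51.8 CPM in the other clusters. The part of that RNA in its receptor levels was not tested. All levels by cluster are descriptions, since genes that move with the members drew the clusters.

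**Figure D2:**
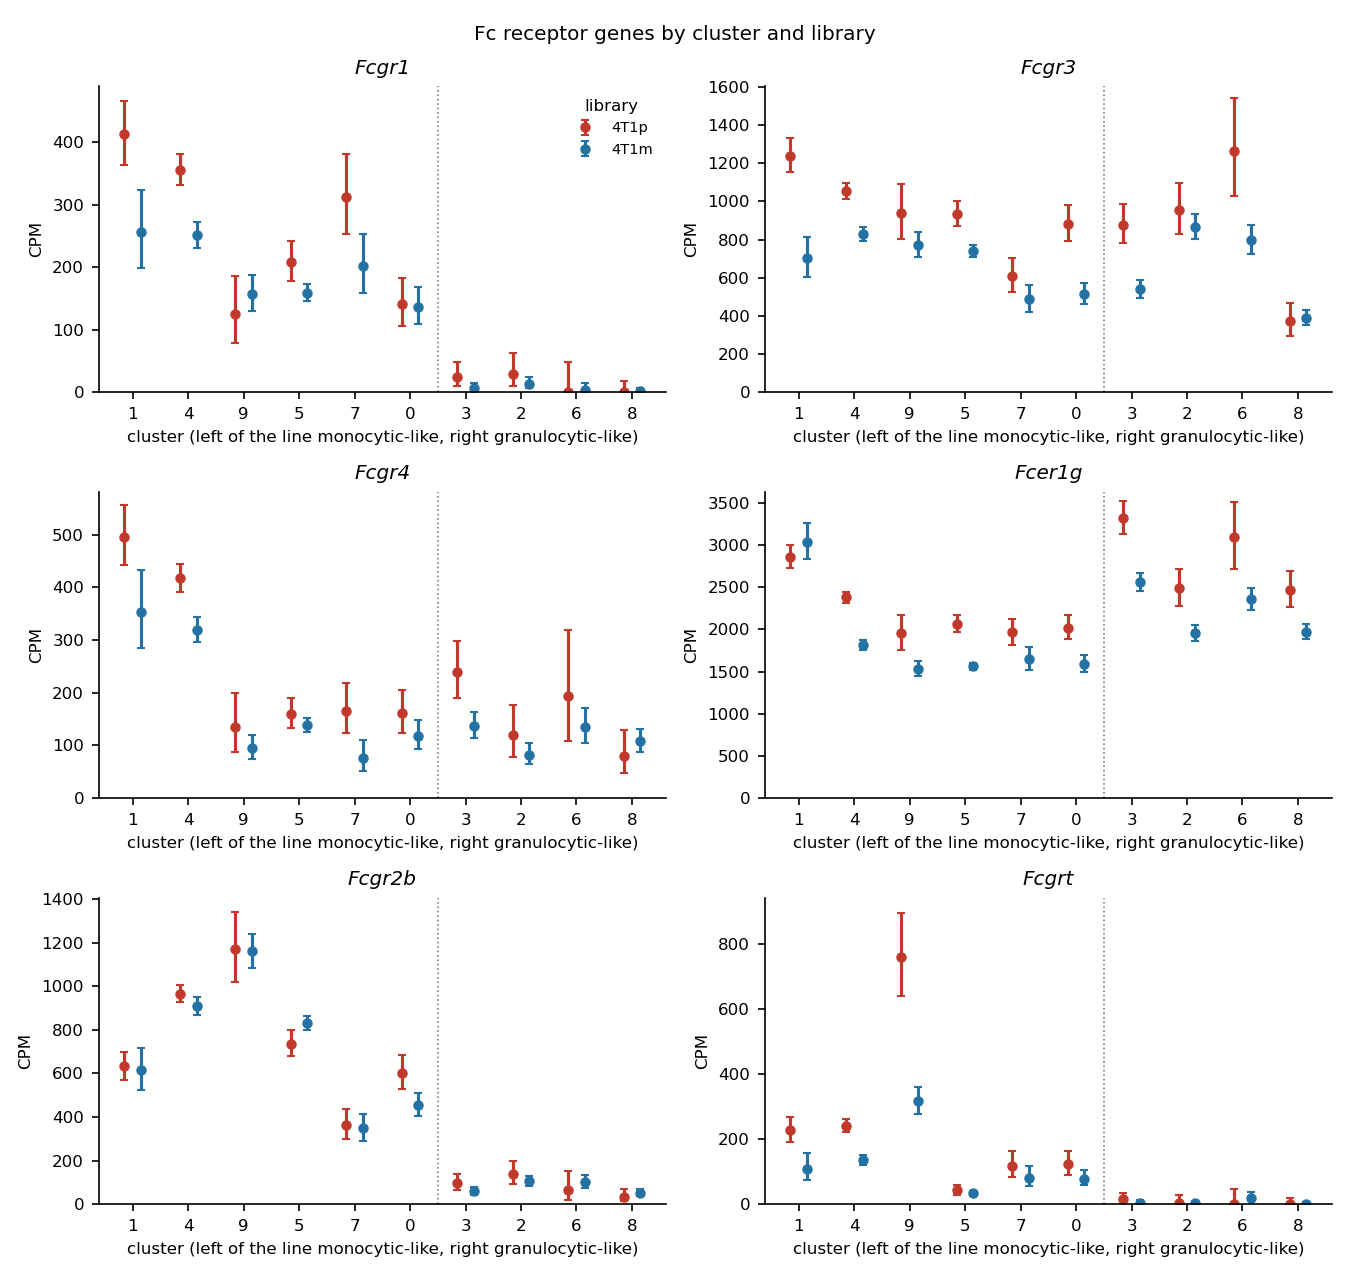
Level of each gene in CPM in the 6 monocytic-like and 4 granulocytic-like clusters, for the libraries labelled 4T1p (red) and 4T1m (blue), with exact 95% Poisson intervals. Fcgr4 and Fcgr1 were highest in clusters 1 and 4, Fcgr2b and Fcgrt in cluster 9, and Fcgr3 was lowest among granulocytic-like cells in cluster 8.

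Fcgr4 stood out in 2 clusters. It was at 453 CPM in cluster 1 and 369 CPM in cluster 4, and between 103 and 143 CPM in the other 4, whose intervals overlapped their neighbours. Both libraries showed this, with 496 (4T1p) and 353 CPM (4T1m) in cluster 1 and 417 and 319 CPM in cluster 4, against at most 166 CPM elsewhere in the lineage. Fcgr1 had a like order, at 365 CPM in cluster 1, 305 in cluster 4 and 252 in the proliferating cluster 7, of which the last 2 overlapped, and at 138 to 169 CPM in clusters 5, 9 and 0, which overlapped. Fcer1g was highest in cluster 1 (2915 CPM) and cluster 4 (2105 CPM), and at 1619 to 1794 CPM in the remaining 4. Fcgr3 ran from 1077 CPM in cluster 1 to 542 CPM in cluster 7.

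The inhibitory receptor and FcRn followed another order. Fcgr2b was highest in the Cd163 and Lyve1 cluster 9, at 1172 CPM in 4T1p and 1162 CPM in 4T1m, followed by cluster 4 (938 CPM over both libraries) and cluster 5 (811 CPM), and lowest in cluster 7 (354 CPM). No neighbours in this order overlapped. Fcgrt was also highest in cluster 9, at 405 CPM over both libraries, but with 762 CPM (641 to 898) in the 19 cells of 4T1p and 317 CPM (277 to 360) in the 76 cells of 4T1m. It was at 191 and 190 CPM in clusters 1 and 4, which overlapped, and at 35.5 CPM in cluster 5, the lowest. Cluster 5 thus had the lowest level of Fcgrt, while its Fcgr2b lay near the 822 CPM of all monocytic-like cells.

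In the granulocytic-like lineage, Fcgr3 was lowest in cluster 8, whose leading genes Camp, Ngp and Ltf encode granule proteins made early in neutrophil maturation. It was there at 374 CPM in 4T1p and 390 CPM in 4T1m. Cluster 2 (led by Ccdc126 and Tnfrsf23) and cluster 6 (Cxcr2 and Prok2) had 885 and 859 CPM, which overlapped, and cluster 3 (Csf1 and Il1f9) had 633 CPM. Fcgr4 had another order, at 165 CPM in cluster 3, 143 in cluster 6, 103 in cluster 8 and 89.7 in cluster 2, with overlap between all neighbours. Fcer1g ranged only from 2058 CPM in cluster 8 to 2773 CPM in cluster 3. Its UMIs per UMI of the 4 receptors were 3.81 in cluster 8, 3.16 in cluster 3, 2.22 in cluster 6 and 1.87 in cluster 2. Over all granulocytic-like cells there were 2.68 Fcer1g UMIs per receptor UMI (2.58 to 2.79), against 0.901 (0.885 to 0.917) in monocytic-like cells. The 4 receptors include the inhibitory Fcgr2b, which took 8.98% of their UMIs in granulocytic-like and 38.3% in monocytic-like cells. Its larger share in monocytic-like cells widened that contrast.

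The libraries were then compared within each lineage. Among monocytic-like cells, the activating receptors, their signalling chain and Fcgrt were lower in the library labelled 4T1m (in 4T1p, were the labels of the files exchanged), while Fcgr2b was at 821 and 823 CPM. Fcgrt differed by -1.01 on the log2 scale (4T1m over 4T1p, -1.15 to -0.88), Fcgr4 by -0.80 (-0.90 to -0.69), Fcgr1 by -0.69 (-0.80 to -0.58), Fcgr3 by -0.45 (-0.51 to -0.40) and Fcer1g by -0.45 (-0.48 to -0.41). For Fcgr2b the ratio was 0.01 (-0.05 to 0.06), and -0.11 relative to the median gene, which was at 0.11. Of all tested genes, 98.3% had a higher ratio than Fcgrt, 96.1% than Fcgr4 and 94.5% than Fcgr1. The share was 87.5% for Fcgr3, 87.2% for Fcer1g and 57.7% for Fcgr2b. By the 2-fold limit 1 of the 6 genes, Fcgrt, was lower in 4T1m, where 1.86% of 9031 tested genes were lower and 7.53% higher. Fcgrt lay at the limit, and dropped inside it under 5 of 15 alternatives. The ratios compare 1 library with 1 library, and the monocytic-like cells of 4T1p had a median of 1601 UMIs against 3701 in 4T1m. The lower level was not particular to the receptor genes, since the 10 monocytic markers were all lower in 4T1m too. Csf1r was at 527 CPM in 4T1p and 476 CPM in 4T1m, C1qa at 4682 and 2452 CPM, and H2-Ab1 at 4200 and 2044 CPM. Whether the receptor genes differed apart from these markers was not tested.

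The largest monocytic-like clusters differed between the libraries, being cluster 1 in 4T1p (318 of 868 cells) and clusters 0 and 5 in 4T1m (286 and 261 of 1015). With the clusters weighted to 1 composition, the log2 ratios were -0.90 for Fcgrt, -0.44 for Fcgr1, -0.40 for Fcgr3, -0.39 for Fcgr4, -0.33 for Fcer1g and -0.01 for Fcgr2b. The differences of Fcgr4 and Fcgr1 were thus over 1.5 times smaller at equal composition, and those of Fcer1g, Fcgrt and Fcgr3 also moved towards 0, Fcgr3 the least. Without the shallow clusters 0, 1 and 7 they were -1.06, -0.67, -0.39, -0.76, -0.47 and -0.03 in the same order of genes.

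**Figure D3:**
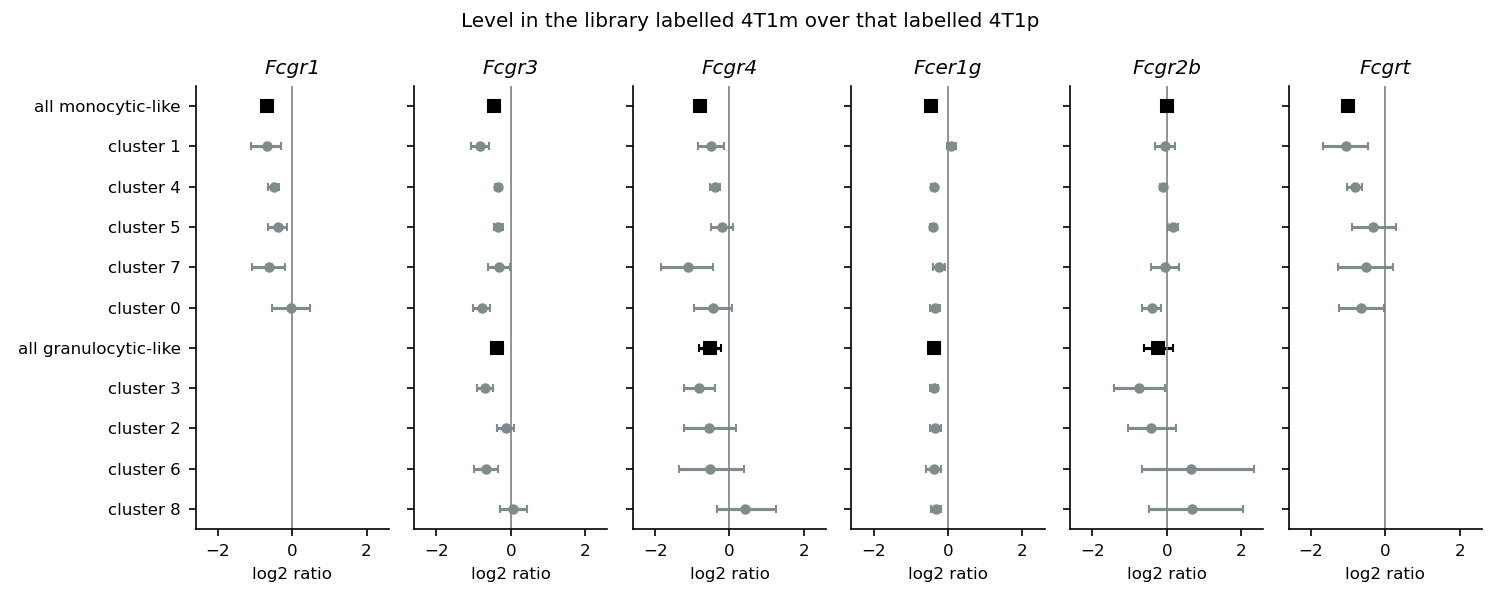
Log2 ratio of the level in the library labelled 4T1m over that labelled 4T1p for each gene, in all cells of a lineage (black squares) and within clusters (grey circles), with 95% counting intervals; genes with under 50 UMIs in a comparison and cluster 9, with 19 cells of 4T1p, are left out. Fcer1g and Fcgr3 lay below 0 in most clusters, whereas Fcgr2b lay on both sides of 0.

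Within single clusters the direction was mostly kept. In the 5 monocytic-like clusters with at least 20 cells of each library, Fcgr3 was lower in 4T1m in all 5, by -0.82 to -0.32, with each interval below 0. Fcgr1 was lower in 5 with 4 intervals below 0, Fcgr4 in 5 with 3, and Fcgrt in 5 with 3. Fcer1g was lower in 4 of 5, the exception being cluster 1 at 0.09 (-0.03 to 0.21). In cluster 4, which held 184 and 173 cells at like depth (medians 14349.5 and 12703 UMIs), Fcgr3 went from 1054 to 830 CPM, Fcgr1 from 356 to 251 CPM, Fcgr4 from 417 to 319 CPM and Fcer1g from 2378 to 1814 CPM. Fcgr2b there was at 967 and 908 CPM, a ratio of -0.09 (-0.18 to -0.0032). Over the 5 clusters Fcgr2b was lower in 4 with 2 intervals below 0 (clusters 0 and 4), its ratio running from -0.41 (-0.66 to -0.15) in cluster 0 to 0.17 (0.05 to 0.30) in cluster 5, where the interval was above 0.

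Among granulocytic-like cells the activating genes were lower in the library labelled 4T1m as well. The log2 ratios were -0.38 (-0.50 to -0.25) for Fcgr3, -0.54 (-0.82 to -0.24) for Fcgr4 and -0.39 (-0.46 to -0.32) for Fcer1g. Fcgr2b had 73 and 239 UMIs and a ratio of -0.23, with an interval from -0.61 to 0.17 that held 0. Fcgr1 and Fcgrt, with 34 and 23 UMIs in all, were too low to compare. None of the 4 tested genes passed 2-fold, where 3.25% of 4491 genes were lower and 7.15% higher. Of those 4491 genes, 79.5% had a higher ratio than Fcgr3, 87.0% than Fcgr4 and 80.4% than Fcer1g. Ratios as low were thus not particular to these genes. Fcer1g was lower in all 4 granulocytic-like clusters, by -0.39 to -0.33 with each interval below 0. In these clusters 73.9% to 80.9% of tested genes had a higher ratio. Fcgr3 was lower in 3 of 4 with 2 intervals below 0, its ratio in cluster 8 being 0.06 (-0.29 to 0.43). Fcgr4 was lower in 3 of 4 with 1 interval below 0, in cluster 3 at -0.81 (-1.23 to -0.38), and its ratio in cluster 8 was 0.42 (-0.33 to 1.25).

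Fcgr2b made up a larger share of the receptor UMIs in the library labelled 4T1m. In monocytic-like cells Fcgr2b took 33.2% (32.4% to 34.1%) of the 11561 UMIs of Fcgr1, Fcgr2b, Fcgr3 and Fcgr4 in 4T1p and 42.4% (41.6% to 43.2%) of 14282 in 4T1m. The activating receptors gave 2.01 UMIs per Fcgr2b UMI in 4T1p and 1.36 in 4T1m. The share was higher in 4T1m in all 6 monocytic-like clusters, with intervals apart in 3 of them: from 22.7% to 32.0% in cluster 1, from 34.6% to 39.4% in cluster 4 and from 36.1% to 44.5% in cluster 5. In cluster 9 it was highest, at 49.4% (44.7% to 54.2%) and 53.1% (50.7% to 55.6%), which overlapped. It was higher in 4T1m under all 12 alternatives, by 6.44 to 12.0 percentage points. In granulocytic-like cells the share was 8.20% (6.48% to 10.2%) and 9.24% (8.15% to 10.4%), which overlapped, and Fcgr3 made up 74.9% and 76.1% of the receptor UMIs. UMIs count transcript ends, so these shares compare groups and do not give the ratio of the proteins.

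**Figure D4:**
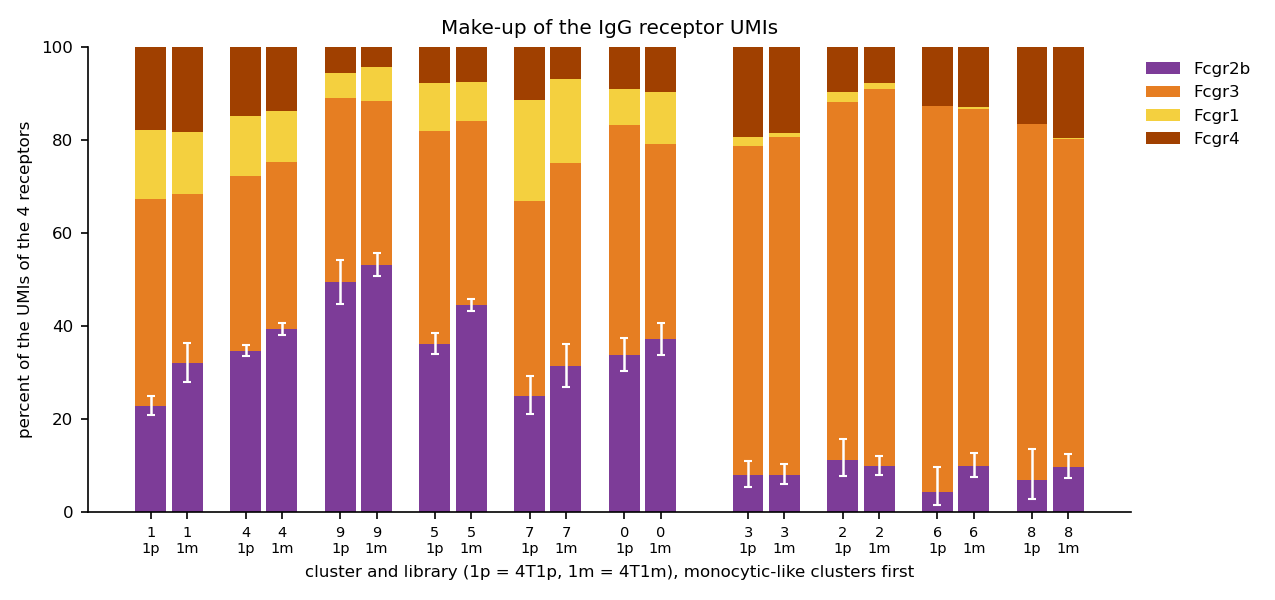
Percent of the UMIs of Fcgr2b (purple), Fcgr3 (orange), Fcgr1 (yellow) and Fcgr4 (brown) in each cluster and library, monocytic-like clusters on the left and granulocytic-like on the right; white bars are exact 95% binomial intervals of the Fcgr2b share. The Fcgr2b share ran from 22.7% to 53.1% in monocytic-like clusters and from 4.24% to 11.2% in granulocytic-like clusters.

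Interferons are textbook inducers of Fcgr1 and Fcgr4, so the genes were also read in cells ranked by the summed share of 8 interferon-stimulated genes (Ifit1, Ifit2, Ifit3, Isg15, Rsad2, Irf7, Cmpk2 and Usp18). In each lineage and library the upper quartile of cells was set against the others. In monocytic-like cells this split also sorted by depth, with medians of 2167 UMIs in the upper quartile and 1503 in the others of 4T1p, and of 8442.5 and 2679 in 4T1m, and 312 of 651 and 428 of 761 of the other cells held no UMI of the 8 genes. The 8 genes were also uneven over the clusters. Cluster 4, 1 of the 2 clusters highest in Fcgr1 and Fcgr4, held them at 2358 CPM, against 430 to 1057 CPM in the other monocytic-like clusters. The parts of depth and of cluster in the values were not tested. Fcgr1 was at 393 CPM (363 to 425) in the upper quartile and 261 CPM (243 to 280) in the other cells of 4T1p, and at 251 and 162 CPM in 4T1m. Fcgr4 was at 384 and 305 CPM in 4T1p and at 237 and 171 CPM in 4T1m. Fcgr2b was level in both libraries, with 803 and 830 CPM in 4T1p and 815 and 827 CPM in 4T1m. For Fcgr3 the values were 914 and 1059 CPM in 4T1p and 759 and 728 CPM in 4T1m.

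In granulocytic-like cells the upper quartile of 4T1p, 63 cells, held Fcgr3 at 1293 CPM (1130 to 1474) against 676 CPM (614 to 742) in the other 188. Fcgr4 was at 287 and 132 CPM and Fcer1g at 3754 and 2636 CPM. In 4T1m the values lay closer, with Fcgr3 at 670 and 607 CPM (overlapping), Fcgr4 at 158 and 101 CPM and Fcer1g at 2540 and 2091 CPM. The cuts were not alike, since they lay at 6027 CPM of interferon-stimulated UMIs in 4T1p and at 1253 CPM in 4T1m. Cluster 3 held these UMIs at 3931 CPM, against 536 to 1873 CPM in the other granulocytic-like clusters, and the part of cluster was not tested. The quartile is a range, not a cell type: 31 of 251 and 80 of 1022 cells lay within 25% of the cut. All 8 interferon-stimulated genes were at least 2-fold lower in granulocytic-like cells of the library labelled 4T1m, where 3.25% of all tested genes were. Their median log2 ratio was -1.97, against 0.06 for all tested genes. In monocytic-like cells 2 were lower and 1 was higher, where 1.86% and 7.53% of all tested genes were. The median there was -0.68, against 0.11. The part of the interferon-stimulated genes in the lower receptor levels of 4T1m was not tested.

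**Figure D5:**
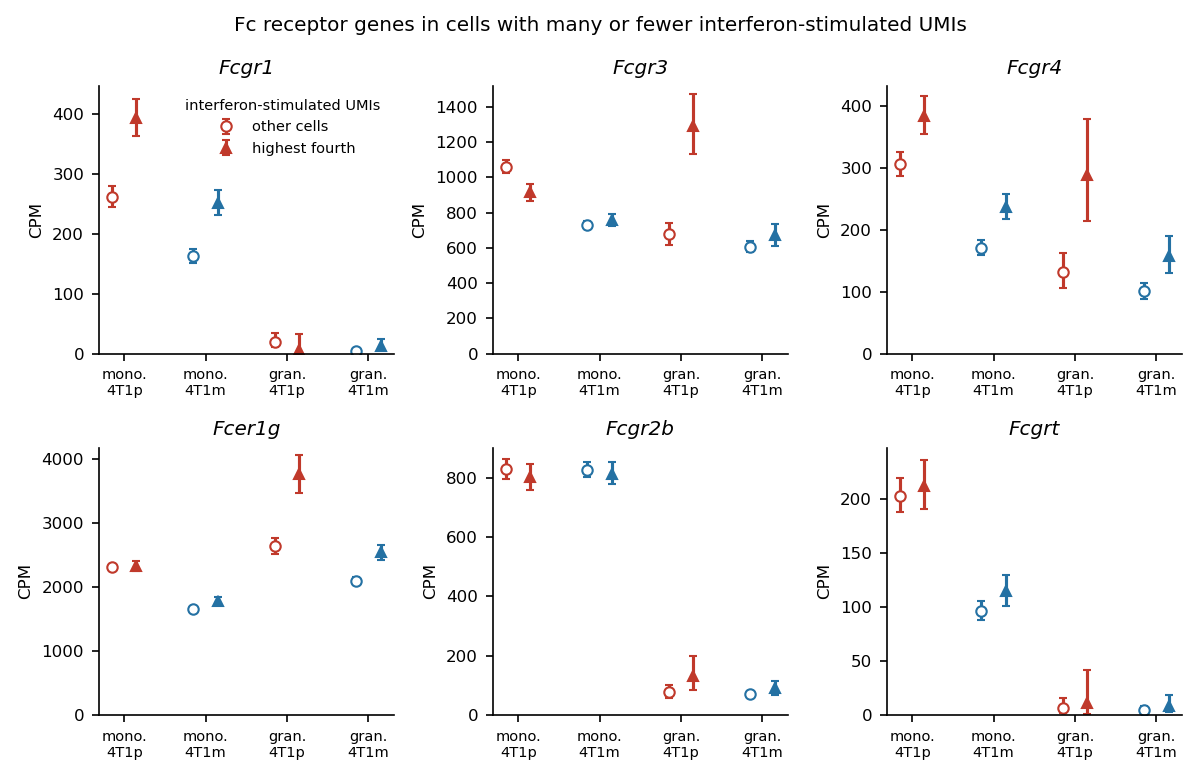
Level of each gene in CPM in the upper quartile of cells by interferon-stimulated UMIs (filled triangles) and in the other cells (open circles), by lineage and library (red 4T1p, blue 4T1m), with exact 95% Poisson intervals. Fcgr1 in monocytic-like cells and Fcgr4 in both lineages were higher in the upper quartile of both libraries, and Fcgr3 was at 1293 against 676 CPM in granulocytic-like cells of 4T1p.

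The signalling genes downstream of the receptors were described by lists. Of 11 genes of the activating pathway, 1 was at least 2-fold higher in monocytic-like cells (Plcg2, a phospholipase, log2 ratios 1.43 in 4T1p and 1.31 in 4T1m) and 3 were lower in both libraries: the kinases Syk (-1.34 and -1.01) and Fgr (-1.84 and -1.86) and the GTPase Rac2 (-1.11 and -1.36). Of all tested genes 49.9% in 4T1p and 54.2% in 4T1m were higher, and 11.1% and 10.5% were lower. The list's median was -0.26 and 0.02, below the 0.99 and 1.21 of all tested genes. Of 7 genes of the inhibitory pathway, 4 were higher in 4T1p and 5 in 4T1m and none was lower, with medians of 1.17 and 1.42, near those of all tested genes, of which 49.9% and 54.2% were higher. Inpp5d, which encodes the SHIP1 that Fcgr2b recruits, was not among them (-0.26 and -0.37). Those higher in both libraries were the adaptor Dok1 (2.75 and 2.36), the kinase Csk (1.45 and 1.42), the ubiquitin ligase Cbl (1.17 and 1.08) and the phosphatase Inppl1 (1.80 and 3.55).

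The 4 tested receptors that also use Fcer1g differed among themselves. The lectin Clec4e was far higher in granulocytic-like cells (3487 against 239 CPM in 4T1p, and 3449 against 515 CPM in 4T1m), as was Clec4d (log2 ratios -3.29 and -2.40). Pira2 had ratios of -1.02 and -0.80, and Clec4n lay the other way at 0.75 and 2.04. Tyrobp, the adaptor that works like Fcer1g for other receptors, had ratios of -0.53 and -0.51, while B2m, the light chain of FcRn, was higher in monocytic-like cells (1.00 and 1.17). Between the libraries B2m, like Fcgrt, was lower in monocytic-like cells of 4T1m, by -0.58. In granulocytic-like cells, where Fcgrt was too low to compare, B2m was lower by -0.75. Of 8 other receptors with an inhibitory motif, 1 was higher and 3 lower in monocytic-like cells of 4T1p and 2 each in 4T1m, beside the 49.9% and 54.2% of all tested genes that were higher and the 11.1% and 10.5% that were lower. The list's medians were 0.28 and -0.24. It was led by Lair1 (3.20 and 3.36) and Siglece (-2.63 and -2.42). None of the 8 was 2-fold apart between the libraries in either lineage. Among 11 genes listed as other immunoglobulin receptors or their relatives only Fcrls had enough UMIs, with ratios of 3.01 and 3.50.

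Over 21 groups of 1 cluster and 1 library, with 3862 genes compared, the patterns of the 6 genes fell into 2 sets. Fcgr1, Fcgr2b and Fcgrt had Pearson correlations of 0.90 to 0.94 with each other, and Fcgr3, Fcgr4 and Fcer1g of 0.85 to 0.91, while between the sets the values ran from 0.15 to 0.57. The groups share libraries and the lineage split, so these are descriptions. They also include the B cell-like and T cell-like cells of 4T1m, which were low in the second set. Fcgr3 was there at 24.8 and 6.71 CPM, against 374 CPM or more in the other groups. Fcgr4 was at 6.19 and 0 CPM and Fcer1g at 49.5 and 175 CPM. The part of these lymphocyte-like groups in the correlations was not tested. The genes most like each were Cmklr1, Ms4a6c and Ms4a6d for Fcgr1 (0.97 each), Psap, Ctsa and Lgmn for Fcgr2b (0.97 each), Adgre1, Rnase4 and Gas6 for Fcgrt (0.96 each), Hmox2, Csf2ra and Fcer1g for Fcgr3 (0.92 to 0.91), Fcgr3, Csf2ra and AF251705 for Fcgr4 (0.90 to 0.87), and Tyrobp, Prdx5 and Ifitm3 for Fcer1g (0.96 to 0.94).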

How the data were processed

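Raw UMI counts per gene and barcode, deposited by the authors as filtered matrices, were used for both libraries. Per the labels and methods the authors made them with Cell Ranger on mm10 (GRCm38, Ensembl annotation), from GR-1 selected cells and 3′ version 3 chemistry. The header of the matrices names Cell Ranger 3.1.0, whereas the methods name another version. The 2 libraries were grouped by their labels, 1 per tumor line.

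Barcodes with 250 to 5000 genes, at most 27000 UMIs and at most 12.5% mitochondrial UMIs were kept. Counts were normalized with Seurat 5.3.0 (sctransform 0.4.2, 3000 variable genes of which 13 were removed: those of the 6 members, of other immunoglobulin receptors and of immunoglobulins), reduced to 11 principal components and clustered by Louvain at resolution 0.8. Clusters were assigned by fixed markers. Doublets were removed only in an alternative. Levels are UMIs summed over a group per 1000000 UMIs (CPM) with exact Poisson intervals, shares have exact binomial (Clopper-Pearson) intervals, and log2 ratios have intervals from the exact binomial share of both counts, all at 95%. With 1 library per group no test was run. A gene was tested for a 2-fold difference where both groups together held 50 UMIs, and the script was tested on simulated data. Depth was 5570882 and 10831715 UMIs. The named genes were the members, the lists, the markers, genes leading a cluster, and the 3 genes most correlated with each member. For that, log2(CPM + 10) was correlated over groups of at least 20 cells, among genes with at least 500 UMIs. The members, lists and markers were chosen with earlier results of these data known. Gene positions are from GENCODE M21 and sequences from RefSeq. Alternatives covered cell filters, doublets, depth, clustering and scaling.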

Additional observations from a re-analysis of the deposited data

How the results depend on the processing

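No paired analysis was possible because each tumor line gave 1 library and the labels carry no replicate numbers; for the same reason no replicate could be left out. The 3 members higher in monocytic-like cells of both libraries stayed 3 under all 14 alternatives, and no named ratio past its limit turned its direction. Centred on the median of all genes, 1 member (Fcer1g) instead of 0 was 2-fold lower in monocytic-like cells. The count of members lower in monocytic-like cells of 4T1m went from 1 to 0 without upper limits on UMIs or genes, with a mean over cells, thinned to 1000 UMIs, with lineages called per cell, and at equal cluster composition. In granulocytic-like cells it went from 0 to 1 with no filter on low counts. The cause was not tested.

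The Fcgr2b share in monocytic-like cells of 4T1p and 4T1m was 31.8% and 41.5% without upper limits, 28.1% and 38.3% as a mean over cells, 27.9% and 39.8% thinned, 34.8% and 41.2% at equal composition, and 35.7% and 43.5% without clusters under 1500 median UMIs, an alternative chosen after seeing the data. With only cells holding a Ptprc UMI it was 34.9% in 4T1p. In granulocytic-like cells of 4T1m it was 8.15% without the highest doublet scores and 13.6% with lineages called per cell. At resolution 0.4 the log2 ratio of the highest over the lowest monocytic-like cluster shrank from 1.40 to 0.17 for Fcgr1, from 0.99 to 0.65 for Fcgr3, from 2.13 to 1.31 for Fcgr4, from 0.85 to 0.35 for Fcer1g, from 1.72 to 1.32 for Fcgr2b and from 3.51 to 0.56 for Fcgrt, since clusters were merged.

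Over the pathway lists, 9 genes were higher in monocytic-like cells of both libraries, where 46.4% of 7087 tested genes were. The count was 4 when centred, 2 when thinned and 5 with at least 200 UMIs. Lower were 7 genes of the lists, where 8% of all tested genes were, and 20 when centred. Tested in the lists were 11 activating, 7 inhibitory, 4 Fcer1g-pairing, 8 inhibitory-motif and 8 interferon-stimulated genes, with Tyrobp, B2m, Fcrls and the immunoglobulin gene Ighm. Between libraries in monocytic-like cells 5 were higher in 4T1m, and 3 with a Ptprc UMI, 1 when centred, 3 when thinned, 16 with no filter, 1 at equal composition and 3 without the shallow clusters; 2 were lower, and 1 at 5% mitochondrial UMIs, 5 without upper limits, 1 when thinned, 1 with at least 200 UMIs, 5 with no filter and 1 at equal composition. In granulocytic-like cells 0 were higher, and 1 as a mean over cells and 7 with no filter; 10 were lower, and 6 when thinned and 5 with at least 200 UMIs. Of these 10 genes, 8 were the interferon-stimulated ones. Only 5 inhibitory genes and neither Fcrls nor Ighm were tested between libraries in granulocytic-like cells. Of all tested genes, 7.53% were higher and 1.86% lower in monocytic-like cells of 4T1m. The shares in granulocytic-like cells were 7.15% and 3.25%. Depth limits Fcgr1 and Fcgrt in granulocytic-like cells, with 34 and 23 UMIs in all.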

Other observations

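The barcodes left out by the limits on UMIs and genes, 57 in 4T1p and 58 in 4T1m, held Fcgr1, Fcgr4, Fcgr2b and Fcgrt at levels between those of the lineages, Fcer1g below both lineages, and Fcgr3 between them in 4T1p and below both in 4T1m. Fcgr2b was at 491 CPM (462 to 522) in 4T1p and 543 CPM (511 to 575) in 4T1m, Fcgr1 at 274 and 149 CPM, Fcgr4 at 199 and 136 CPM, Fcgr3 at 829 and 567 CPM, Fcer1g at 1826 and 1319 CPM and Fcgrt at 128 and 76.9 CPM. In the barcodes above the mitochondrial limit, 286 and 504, Fcgr2b was at 277 and 327 CPM and Fcgr3 at 489 and 443 CPM. In both sets Fcgr2b was higher and the other 5 genes were lower in the library labelled 4T1m. The intervals of Fcgr2b overlapped between the libraries in each set. Above the mitochondrial limit those of Fcgr3, Fcgr4, Fcer1g and Fcgrt overlapped as well, and only those of Fcgr1 were apart.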
